A study of Mus musculus with 30 samples.

Results

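The mitochondrial genome transcripts analysed here were the 37 genes, of 55487 in the raw count table, whose mouse symbol begins with "mt-". They are 13 mRNA, 2 ribosomal RNA (rRNA) and 22 transfer RNA (tRNA) genes, chosen by symbol alone and grouped by these 3 classes. RNA-sequencing was performed on C2C12 myotubes, the multinucleated cells that form when this single wild-type mouse myoblast line fuses, and all 30 libraries came from this line. Myotubes were differentiated for 4 days and treated for 4 further days, 8 days in all, in 5 groups of 6 libraries. The 2% HS group kept 2% horse serum, and the other 4 groups had no serum. SD was serum deprivation alone, MET had 100 nM metformin, LEU had 500 nM leucine, and MET+LEU had both agents at these doses. Metformin is a biguanide drug used in diabetes and leucine is a branched-chain amino acid. The labels do not say whether the 6 libraries of a group came from separate cultures, so p-values measure the spread between these libraries only.

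The mitochondrial genome is a small circle of DNA that is transcribed from both strands into long precursors. The tRNAs sit between most of the mRNA and rRNA genes, and excision of the tRNAs releases the RNAs around them. The mRNAs encode core subunits of the respiratory chain and of ATP synthase, and the rRNAs and tRNAs serve the ribosomes that translate them inside the organelle. All other mitochondrial proteins, including the polymerase and the enzymes that process these RNAs, come from nuclear genes.

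Of the 37 genes, 28 are annotated on the plus strand of chrM and 9 on the minus strand (GRCm38 in GENCODE M21). The 9 are mt-Nd6, the only mRNA on that strand, and 8 tRNAs. Neighbouring genes are packed closely, and 9 adjacent pairs share bases, which matters for counts per gene because a read over shared bases fits both genes. The 3 sequences below show the longest such overlap and the ends of mt-Nd4l and mt-Nd6, with the shared bases in capitals. The first is all of mt-Atp8, a subunit of ATP synthase (chrM:7766-7969, plus strand), whose last 43 bases are also the start of mt-Atp6. The second is the last 100 bases of mt-Nd4l (chrM:10074-10173, plus strand), of which 7 belong to mt-Nd4. The third is the last 100 bases of mt-Nd6 (chrM:13552-13651, minus strand), whose final 14 lie opposite the end of mt-Nd5. All 3 come from GENCODE M21 transcripts.
mt-Atp8: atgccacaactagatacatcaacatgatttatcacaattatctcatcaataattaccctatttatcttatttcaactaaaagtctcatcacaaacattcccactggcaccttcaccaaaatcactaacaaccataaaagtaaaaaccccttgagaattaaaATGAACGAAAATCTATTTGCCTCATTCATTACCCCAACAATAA
mt-Nd4l: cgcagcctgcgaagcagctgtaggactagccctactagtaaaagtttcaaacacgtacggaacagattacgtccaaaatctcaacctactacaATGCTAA
mt-Nd6: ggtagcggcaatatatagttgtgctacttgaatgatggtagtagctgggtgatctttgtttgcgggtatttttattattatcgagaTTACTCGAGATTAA

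The tRNAs are shorter than the 150-base reads, so a full-length read on a tRNA gene also covers bases beside it. Counts on tRNA genes therefore cannot separate excised tRNAs from longer RNA that holds their sequence. The 4 tRNAs on which later results turn are printed whole, in lower case throughout. They are mt-Tl1, a leucine tRNA (chrM:2676-2750, plus strand), mt-Tm for methionine (chrM:3845-3913, plus strand), mt-Tw for tryptophan (chrM:4950-5016, plus strand) and mt-Tp for proline (chrM:15356-15422, minus strand). mt-Tl1 fills the whole gap between mt-Rnr2 and mt-Nd1, mt-Tm ends at the base before mt-Nd2, and mt-Tw shares 2 bases with the end of mt-Nd2. mt-Tp has no mRNA beside it.
mt-Tl1: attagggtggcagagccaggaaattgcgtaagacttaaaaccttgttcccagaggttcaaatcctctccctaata
mt-Tm: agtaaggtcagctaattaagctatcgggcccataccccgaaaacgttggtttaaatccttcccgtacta
mt-Tw: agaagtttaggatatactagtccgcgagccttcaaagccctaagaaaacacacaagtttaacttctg
mt-Tp: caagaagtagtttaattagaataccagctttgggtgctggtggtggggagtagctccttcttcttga

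Libraries held between 12784960 and 19604103 counts. MET+LEU replicate 6 stood apart. Mitochondrial rRNA took 7.64% of its counts and nuclear rRNA 5.85%, where the other 29 libraries reached at most 0.760% and 1.956%. Fold changes of members in MET+LEU are therefore given with and without this library. The summed level of 10 myotube markers lay between 11347 and 14522 CPM (the count relative to library size, scaled by the TMM method of edgeR) in every library, and 6 markers of cycling or unfused myoblasts summed to between 274.0 and 383 CPM. Markers of endothelial cells and adipocytes, and Ptprc and Adgre1 of immune cells, did not pass 10 counts in any library. The third immune marker, Cd68, had enough counts to be tested, and the 3 summed to between 1.53 and 3.72 CPM. The 4 fibroblast markers, which include collagens that myoblasts also make, summed to between 2973 and 3288 CPM in 2% HS and between 5074 and 5771 CPM in the serum-free groups, and their part in the results for SD vs. 2% HS was not tested. In bulk RNA, fewer cells and less RNA per cell cannot be told apart.

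The level of the 37 genes per length spanned more than 3 orders of magnitude among those with counts. On the scale of TMM-scaled CPM per kb of gene, medians over all 30 libraries were 8281 for mt-Co1, a catalytic subunit of cytochrome c oxidase, 3830 for mt-Cytb, the cytochrome b of complex III, and 3578 for mt-Nd1 of complex I. mt-Rnr1, the small-subunit rRNA, followed at 3527, mt-Nd5 at 1892, mt-Nd4 at 1731, mt-Nd2 at 1614, mt-Rnr2, the large-subunit rRNA, at 871 and mt-Nd6 at 569. mt-Co1 was above mt-Cytb, and mt-Cytb above mt-Nd1, in 30 of 30 libraries. The order was least kept between mt-Nd1 and mt-Rnr1, where mt-Nd1 was higher in 15 of 30, and between mt-Nd4 and mt-Nd2, where mt-Nd4 was higher in 19 of 30. mt-Nd5 was above mt-Nd4 in 26 of 30, mt-Nd2 above mt-Rnr2 in 28, and mt-Rnr1 above mt-Nd5 and mt-Rnr2 above mt-Nd6 in 29 each. Both rRNAs are targets of the depletion step used in preparing the libraries, so their counts are what depletion left.

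**Figure D1:**
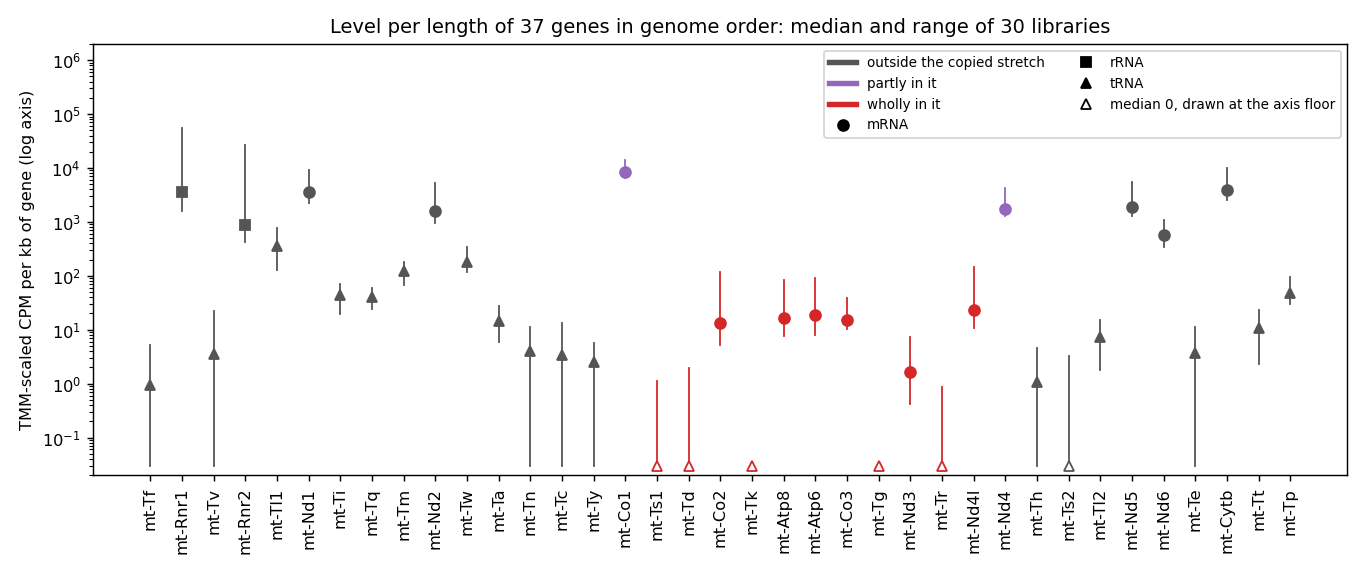
Level per length (TMM-scaled CPM per kb, log axis) of the 37 genes in genome order. Symbols are medians and lines the range of 30 libraries, with values of 0 drawn at the axis floor. The 6 mRNAs wholly inside the stretch bounded by nuclear copies (red) have medians from 1.67 to 23.1, and the other 7 have medians from 569 to 8281.

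The other 6 mRNAs were far lower. Their medians were 23.1 CPM per kb for mt-Nd4l, 18.98 for mt-Atp6, 16.4 for mt-Atp8, 14.97 for mt-Co3, 13.4 for mt-Co2 and 1.67 for mt-Nd3, against 569 or more for each of the first 7. Those 6 are consecutive among the mRNA genes and lie wholly within chrM:6390-11042. This stretch of 4653 bases runs between the outer ends of the matches to 7 near-identical nuclear copies. A search of 141730 nuclear transcripts with blastn found 7 annotated pseudogenes on chr1:24611535-24616197, each with an identical run of at least 150 bases to an mRNA of this stretch. A further copy of mt-Co2 on chromosome 2, Gm13341, had a run of 173 bases, and 3 others, to mt-Co1, mt-Nd2 and mt-Nd5, had runs of 148 bases or fewer. Gm28661 is identical to mt-Co2 over 681 bases, Gm10925 to mt-Atp6 over 678, Gm28437 to mt-Co3 over 783 and Gm10222 to mt-Nd4l over 294. mt-Co1 and mt-Nd4 lie partly in the stretch, with identical runs of 479 bases in Gm29216 and 876 bases in Gm28439. The 5 tRNAs inside the stretch (mt-Ts1, mt-Td, mt-Tk, mt-Tg and mt-Tr) had at most 2 counts in any library. The 17 tRNAs outside it reached up to 713, with median counts per gene from 0 to 407. Some of these were also near 0, as mt-Ts2, mt-Th and mt-Tf reached at most 3, 4 and 5 counts. No nuclear copy of mt-Atp8 or of the 5 tRNAs inside the stretch was found among the annotated transcripts.

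For 4 of the 7 pairs, counts on the member and its copy were of similar size. Median counts per library were 145 on mt-Co2 and 214.5 on Gm28661, 211.5 on mt-Atp6 and 354.5 on Gm10925, 183.5 on mt-Co3 and 225 on Gm28437, and 110 on mt-Nd4l and 86.5 on Gm10222. The partly copied genes were far above their copies, with 191425 counts on mt-Co1 and 308.5 on Gm29216, and 36749 on mt-Nd4 and 146.5 on Gm28439. Reads that lie wholly within identical sequence cannot be assigned to either gene by their bases, and how the authors' counting treated reads with several matches is not given in the sources used here. The values of the mRNAs wholly inside the stretch are therefore uncertain. mt-Atp8 is kept with them by its position, although no annotated copy of it was found.

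mt-Nd3, a subunit of complex I, was the lowest mRNA, with 2 to 31 counts, and its copy Gm28438 had 83 to 187, more than mt-Nd3 in every library. The pair differs by 1 base in 345, the substitution T3C, counted from 1 at the start of mt-Nd3 with the mitochondrial base first. The first 60 bases of each are printed to show this base, which is in capitals (GENCODE M21 transcripts, GRCm38, positions 1 to 60 of mt-Nd3, whose gene is chrM:9459-9806 on the plus strand, and of Gm28438, chr1:24612775-24613119 on the minus strand).
mt-Nd3: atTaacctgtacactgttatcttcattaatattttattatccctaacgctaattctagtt
Gm28438: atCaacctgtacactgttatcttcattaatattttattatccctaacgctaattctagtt

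The tRNA class was thinly counted. By level per kb the order was mt-Tl1 (350.2), mt-Tw (181), mt-Tm (125), mt-Tp (47.3), mt-Ti (43.7) and mt-Tq (40.2), and mt-Tl1 was above mt-Tw, mt-Tw above mt-Tm and mt-Tm above mt-Tp in 30 of 30 libraries. mt-Tk and mt-Tg had 0 counts in all 30 libraries, which at a limit of 3 counts allows a share of up to between 1.53e-05% and 2.35e-05% of a library's counts, counting error only. Of the 37 genes, 24 had enough counts to be tested, namely all 13 mRNAs, both rRNAs and 9 tRNAs (mt-Ta, mt-Ti, mt-Tl1, mt-Tl2, mt-Tm, mt-Tp, mt-Tq, mt-Tt and mt-Tw). The other 13 tRNAs had at most 19 counts in a library and were not tested.

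As shares of a library's counts, all 3 classes had lower medians in the 2% HS and SD groups than in the other groups, and their highest in MET+LEU. The mRNA genes took 2.18% to 2.81% (median 2.54%) of counts in 2% HS, 2.39% to 3.08% (2.45%) in SD, 2.39% to 3.02% (2.65%) in MET, 2.88% to 3.16% (2.95%) in LEU and 3.05% to 5.17% (3.20%) in MET+LEU, where the highest was 3.38% without replicate 6. The lowest MET+LEU library thus lay inside the SD range. The rRNA genes took 0.219% to 0.306% (median 0.272%) in 2% HS and 0.281% to 0.367% (0.328%) in SD. They took 0.244% to 0.705% (0.547%) in MET, 0.501% to 0.710% (0.588%) in LEU and 0.649% to 7.64% (0.709%) in MET+LEU, with a highest share of 0.760% without replicate 6. No LEU or MET+LEU library overlapped SD in this class, with or without replicate 6, and MET overlapped SD. The tRNA genes took 0.00332% to 0.00509% (median 0.00432%) in 2% HS, 0.00468% to 0.00673% (0.00540%) in SD, 0.00476% to 0.00742% (0.00609%) in MET, 0.00598% to 0.00699% (0.00668%) in LEU and 0.00685% to 0.00908% (0.00741%) in MET+LEU. All MET+LEU libraries were above all SD libraries in the tRNA class. These shares are descriptions and were not tested.

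**Figure D2:**
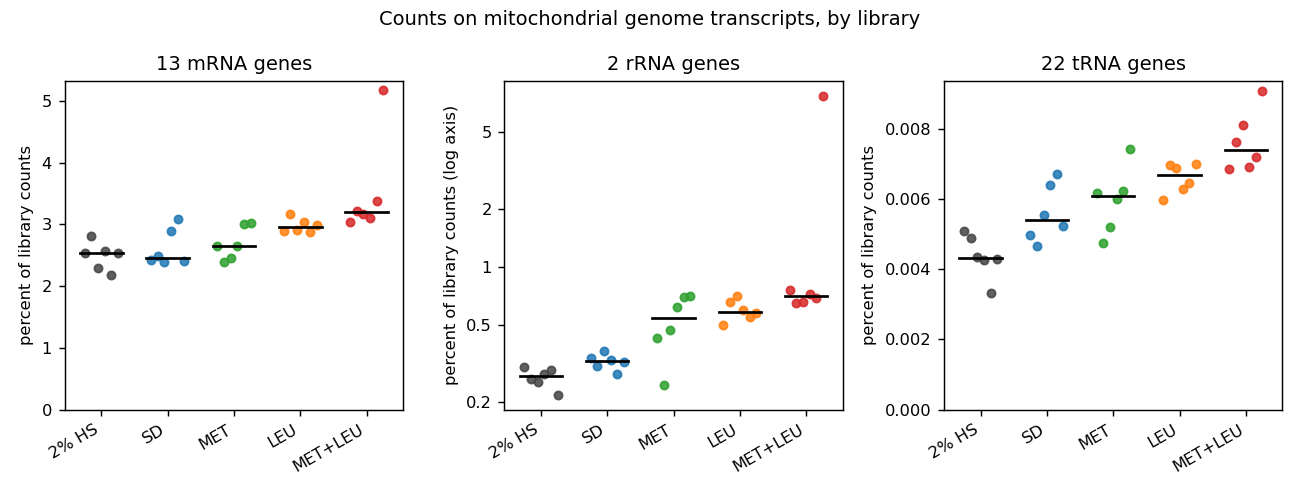
Percent of each library's counts on the 13 mRNA, 2 rRNA (log axis) and 22 tRNA genes, by group. Points are libraries and bars are medians of 6. MET+LEU replicate 6 is at 7.64% in the rRNA panel, and the other MET+LEU libraries are between 0.649% and 0.760%.

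To ask what serum removal did to these transcripts, SD was compared with 2% HS in a model of all 30 libraries (edgeR quasi-likelihood test, Benjamini-Hochberg adjustment over 15907 genes, threshold of an adjusted p under 0.05). Of the 24 tested members 2 rose and 0 fell, beside 13.9% of all genes tested that rose and 13.9% that fell. In 0 of 24 were all SD libraries above all 2% HS libraries, where 6.17% of genes were. mt-Tm held 4.69 to 7.69 (median 6.54) CPM in 2% HS and 6.64 to 11.3 (8.85) in SD. Its log2 fold change was 0.47 ± 0.14 (SE; adjusted p = 0.00667), although the groups overlapped. mt-Nd4l held 3.69 to 5.77 CPM (median 4.25) in 2% HS and 4.38 to 43.8 (5.98) in SD, with a log2 fold change of 1.39 ± 0.50 and an adjusted p of 0.0377. SD replicate 5 stood at 43.8 CPM, where the other 5 SD libraries were at 7.68 or less. Without it the value was 0.37 ± 0.32 (adjusted p = 0.421), and the call was also lost without replicate 1, 2, 3, 5 or 6 of 2% HS. With mt-Nd4l summed with its nuclear copy it was 0.84 ± 0.37 (adjusted p = 0.0968).

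The rRNAs and mt-Nd6 were not among the calls for serum removal. In 2% HS vs. SD, mt-Rnr1 (ENSMUSG00000064337, chrM:70-1024, plus strand) held 1501 to 1906 CPM (median 1720.3) and 1718 to 2261 (2026), with a log2 fold change for SD vs. 2% HS of 0.24 ± 0.50. mt-Rnr2 (ENSMUSG00000064339, chrM:1094-2675, plus strand) held 665 to 1231 CPM (median 929.7) and 1058 to 1371 (1139), with a log2 fold change of 0.32 ± 0.53. For mt-Nd6 (ENSMUSG00000064368, chrM:13552-14070, minus strand) all 2% HS libraries lay between 203 and 232 CPM, while SD spread from 181 to 317, with 2 libraries below the 2% HS range and 4 above it. Its log2 fold change was 0.26 ± 0.13, with an adjusted p of 0.145. Without MET+LEU replicate 6, which enters this comparison only through the spread estimated over all libraries, 4 members rose (15.8% of all genes), adding mt-Nd1 (0.30 ± 0.08) and mt-Tl1 (0.49 ± 0.17).

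For metformin alone, MET vs. SD, 0 of 24 members passed the threshold in edgeR, beside 0.0754% of all genes that rose and 0.0817% that fell. At an unadjusted p under 0.05 the count was also 0, where 1597 of all 15907 genes passed, and DESeq2 and limma-voom called 0 members. mt-Ti, the isoleucine tRNA, was the 1 member with all MET libraries above all SD libraries (0.31 ± 0.18, adjusted p = 0.584), as were 0.346% of genes. The 6 MET libraries were widely spread for mt-Rnr1. They held 2969, 1491, 3224, 4373, 5257 and 5640 CPM, from below the lowest SD library to above the highest LEU library. The log2 fold change of mt-Rnr1 was 0.92 ± 0.50 (adjusted p = 0.575), and 0.92 ± 0.20 (adjusted p = 0.0172) without MET+LEU replicate 6, where it was the 1 member called, beside 0.692% of genes that rose. mt-Rnr2 held 873 to 1740.4 CPM (median 1377) in MET and its log2 fold change was 0.23 ± 0.53. mt-Nd6 held 270.1 to 335 CPM (median 316) in MET with a log2 fold change of 0.24 ± 0.13.

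For leucine alone, LEU vs. SD, edgeR again called 0 of 24 members, beside 0.233% of genes that rose and 0.321% that fell. At an unadjusted p under 0.05 the count was 6, where 1588 of all 15907 genes passed, and DESeq2 and limma-voom each called 1 member. All LEU libraries were nonetheless above all SD libraries for 4 members, mt-Rnr1, mt-Rnr2, mt-Nd2 and mt-Cytb, where 0.786% of all genes had such a separation. mt-Rnr1 held 3512 to 5230.2 CPM (median 4225) in LEU, with a log2 fold change of 1.09 ± 0.50 (adjusted p = 0.470). mt-Rnr2 held 1398 to 1920.2 CPM (median 1644), with a log2 fold change of 0.50 ± 0.53 (adjusted p = 0.826). mt-Nd6 lay at 247 to 312 CPM (median 264) within the SD range, with a log2 fold change of 0.06 ± 0.13.

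The standard errors of the LEU comparison were smaller in the model without MET+LEU replicate 6. Without that library, 4 members rose, beside 1.02% of genes. They were mt-Rnr1 (1.09 ± 0.20, adjusted p = 0.00275), mt-Tw (0.35 ± 0.08, adjusted p = 0.0124), mt-Cytb (0.33 ± 0.07, adjusted p = 0.0190) and mt-Nd2 (0.40 ± 0.10, adjusted p = 0.0435). In a model of the LEU and SD libraries alone 4 members passed, mt-Rnr1, mt-Tw, mt-Cytb and mt-Rnr2. The share of all genes passing in that model is not given here, so this count has no such share beside it.

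With both agents, MET+LEU vs. SD, 12 of 24 members rose and 0 fell, beside 10.6% of all genes that rose and 7.8% that fell. The 12 were 7 of 13 mRNAs, both rRNAs and 3 of 9 tested tRNAs. The median log2 fold change of the 24 members was 0.55, and 0.34 without replicate 6, where that of all genes was -0.01 in each case. Without replicate 6, 11 rose and 0 fell, beside 7.86% of genes, and all 11 were among the 12. The member lost was mt-Co1, with a log2 fold change of 0.32 ± 0.10 (adjusted p = 0.0231), and 0.18 ± 0.07 (adjusted p = 0.0812) without replicate 6, and its call was also lost without SD replicate 1, 3 or 6. All MET+LEU libraries were above all SD libraries for 10 members, with and without replicate 6, where 3.41% and 3.7% of all genes had this separation. In a model of only the MET+LEU and SD libraries, 3 members passed (mt-Tl1, mt-Tp and mt-Tw), and 10 did so in that model without replicate 6. Markers of cell state moved in the same comparison. Of 6 markers of cycling or unfused myoblasts 4 fell, and their summed level was 274.0 to 299.8 CPM in MET+LEU and 316 to 357 CPM in SD, and 5 of 10 myotube markers rose. Their part in the results was not tested.

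**Figure D3:**
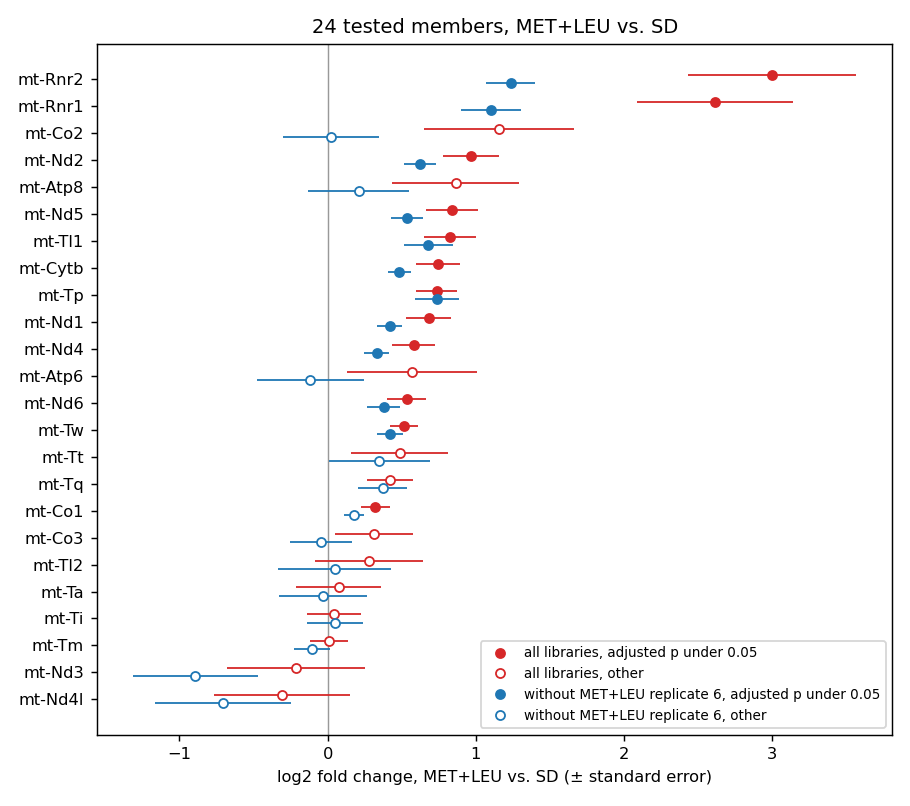
Log2 fold change (± standard error) of the 24 tested members in MET+LEU vs. SD, from the model with all libraries (red) and without MET+LEU replicate 6 (blue). Filled points have an adjusted p under 0.05. mt-Rnr1 moves from 2.61 to 1.10 and mt-Rnr2 from 3.00 to 1.23, and mt-Tp stays at 0.73 and 0.74.

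Among the mRNAs, the 7 that rose with all libraries were those outside or only partly inside the copied stretch. They comprise 5 of the 7 complex I subunits (mt-Nd1, mt-Nd2, mt-Nd4, mt-Nd5 and mt-Nd6), mt-Cytb of complex III and mt-Co1 of complex IV. Their median counts per library were 4398 to 191425, against 9 to 211.5 for the 6 wholly inside the stretch. The part of this difference in the calls was not tested. The 6 mRNAs wholly inside the stretch had log2 fold changes from -0.31 to 1.155 and none passed, and their median went from 0.44 to -0.08 without replicate 6. They are kept apart for the uncertain assignment of reads described above. mt-Co2, a subunit of complex IV, held 7.45 to 11.6 CPM in 5 MET+LEU libraries and 79.6 in replicate 6. That library was also the highest of its group for each of the 7 mRNAs that rose.

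mt-Nd2 (ENSMUSG00000064345, chrM:3914-4951, plus strand) held 1067 to 1666 CPM (median 1337) in SD and 2041 to 5501 (2114) in MET+LEU, where the highest was 2199 without replicate 6. It rose by 0.97 ± 0.19 on the log2 scale (adjusted p = 7.7e-04), and by 0.62 ± 0.11 (adjusted p = 2.3e-04) without replicate 6. mt-Cytb (ENSMUSG00000064370, chrM:14145-15288, plus strand) held 3219 to 4359 CPM (median 3646) in SD and 5193 to 11360 (5283) in MET+LEU, with 5309 the highest of the other 5. The 2 groups did not overlap, and the log2 fold change was 0.74 ± 0.15 (adjusted p = 8.1e-04), or 0.48 ± 0.08 (adjusted p = 1.2e-04) without replicate 6. mt-Nd5 (ENSMUSG00000064367, chrM:11742-13565, plus strand), the largest complex I subunit made here, held 2541 to 3669 CPM (median 2625) in SD and 3855 to 10029 (4250) in MET+LEU. Its log2 fold change was 0.84 ± 0.18 (adjusted p = 0.00141) and 0.54 ± 0.11 (adjusted p = 0.00105) without replicate 6. mt-Nd1 and mt-Nd4, past the threshold as well, had log2 fold changes of 0.68 ± 0.15 and 0.58 ± 0.15, and of 0.42 ± 0.08 and 0.33 ± 0.08 without replicate 6.

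mt-Nd6, from the other strand, held 181 to 317 CPM (median 290.4) in SD and 327 to 572 (344) in MET+LEU, so the groups did not overlap by a narrow gap. The log2 fold change was 0.53 ± 0.13 (adjusted p = 0.00556), and 0.38 ± 0.11 (adjusted p = 0.0214) without replicate 6. Counts on mt-Nd6 per 100 counts on the 12 mRNAs of the plus strand ranged from 0.754 to 1.37 in SD and from 0.895 to 1.15 in MET+LEU, so this ratio of the strands overlapped between the groups.

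The rRNAs had the largest fold changes of the 24 members. mt-Rnr1 held 1718 to 2261 CPM (median 2026) in SD and 3543 to 52730.1 (4506) in MET+LEU, with 4965 the highest without replicate 6. The log2 fold change was 2.61 ± 0.53 (adjusted p = 9.4e-04), and 1.10 ± 0.20 (adjusted p = 5.2e-04) without replicate 6. mt-Rnr2 held 1058 to 1371 CPM (median 1139) in SD and 2012 to 42476 (2950.3) in MET+LEU, with 3528 the highest without replicate 6. The log2 fold change was 3.00 ± 0.57 (adjusted p = 5.2e-04), and 1.23 ± 0.17 (adjusted p = 1.1e-05) without replicate 6. For both rRNAs, 5 of the 6 MET+LEU libraries lay moderately above every SD library, and 1 lay far beyond.

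Nuclear rRNA moved with this result. Of counts on the 354 nuclear rRNA genes, 99.8% lay on 1 gene, so their share is in effect that of a single locus. Nuclear rRNA took 0.209% to 0.890% (median 0.450%) of counts in SD and 0.659% to 5.85% (1.13%) in MET+LEU, with 1.956% the highest without replicate 6. Of 9 listed nuclear loci that collect rRNA reads, 3 were matched and tested. These were Gm24270, Gm24187 and Lars2. All 3 rose in MET+LEU vs. SD, by 2.05 to 2.10 on the log2 scale, and by 1.70 to 2.02 without replicate 6. Lars2 encodes the mitochondrial leucyl-tRNA synthetase and is listed here because its locus holds rRNA-like sequence. In the other groups, nuclear rRNA took 0.217% to 0.702% (median 0.316%) in 2% HS, 0.317% to 0.743% (0.509%) in MET and 0.507% to 1.056% (0.591%) in LEU. The part of ribosomal depletion in the mitochondrial rRNA values was not tested.

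**Figure D4:**
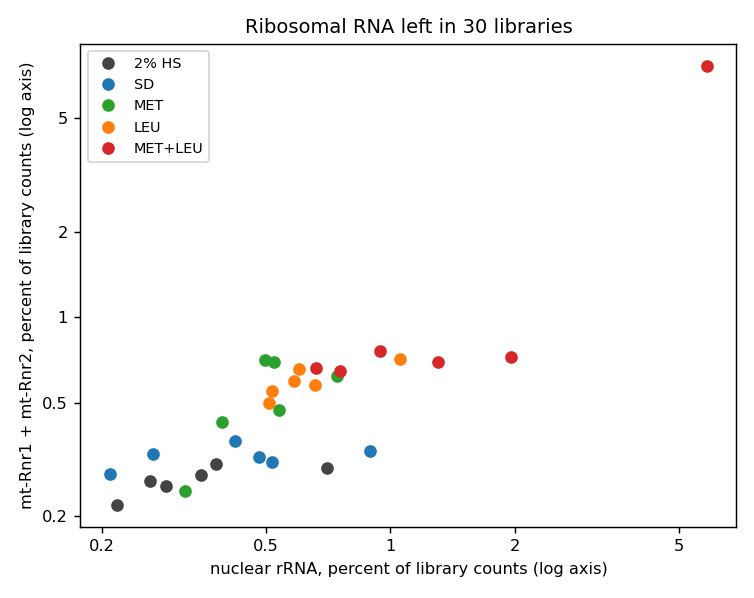
Share of counts on the 2 mitochondrial rRNA genes against the share on nuclear rRNA genes in each of 30 libraries (both in percent, log axes), colored by group. Of the nuclear rRNA counts, 99.8% lie on 1 gene. MET+LEU replicate 6 stands at 5.85% nuclear and 7.64% mitochondrial rRNA, and SD and 2% HS libraries stay at or below 0.367% mitochondrial rRNA over nuclear shares from 0.209% to 0.890%. MET libraries hold 0.244% to 0.705% mitochondrial rRNA over nuclear shares from 0.317% to 0.743%. LEU libraries hold 0.501% to 0.710% over nuclear shares from 0.507% to 1.056%.

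Of the tRNA genes, mt-Tl1, mt-Tw and mt-Tp rose in MET+LEU vs. SD. These calls also passed with replicate 6 left out and in the model of the 2 groups alone. They concern counts on the genes, and the part of reads that reach into neighbouring sequence was not tested. mt-Tl1 (ENSMUSG00000064340) held 17.6 to 29.3 CPM (median 19.5) in SD and 31.1 to 57.8 (34.5) in MET+LEU, with a log2 fold change of 0.82 ± 0.18 (adjusted p = 0.00173), and 0.68 ± 0.17 without replicate 6. mt-Tw (ENSMUSG00000064346) held 10.3 to 14.9 CPM (median 11.9) in SD and 15.3 to 23.3 (16.7) in MET+LEU, with a log2 fold change of 0.51 ± 0.09 (adjusted p = 1.0e-04), and 0.42 ± 0.09 without replicate 6. mt-Tp (ENSMUSG00000064372) held 2.08 to 3.92 CPM (median 3.37) in SD and 4.27 to 6.37 (5.16) in MET+LEU, with a log2 fold change of 0.73 ± 0.14 (adjusted p = 2.0e-04). None of these 3 overlapped between the groups. mt-Tp was the member least altered by replicate 6, with 0.74 ± 0.15 (adjusted p = 3.1e-04) without it, and that library, at 5.10 CPM, lay within the range of the other 5. It rested on few counts, 27 to 62 in SD and 60 to 104 in MET+LEU. mt-Tq, the glutamine tRNA, had a log2 fold change of 0.42 with an adjusted p of 0.0558, and the remaining 5 tested tRNAs had values from 0.01 to 0.49 with adjusted p of 0.329 or more.

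**Figure D5:**
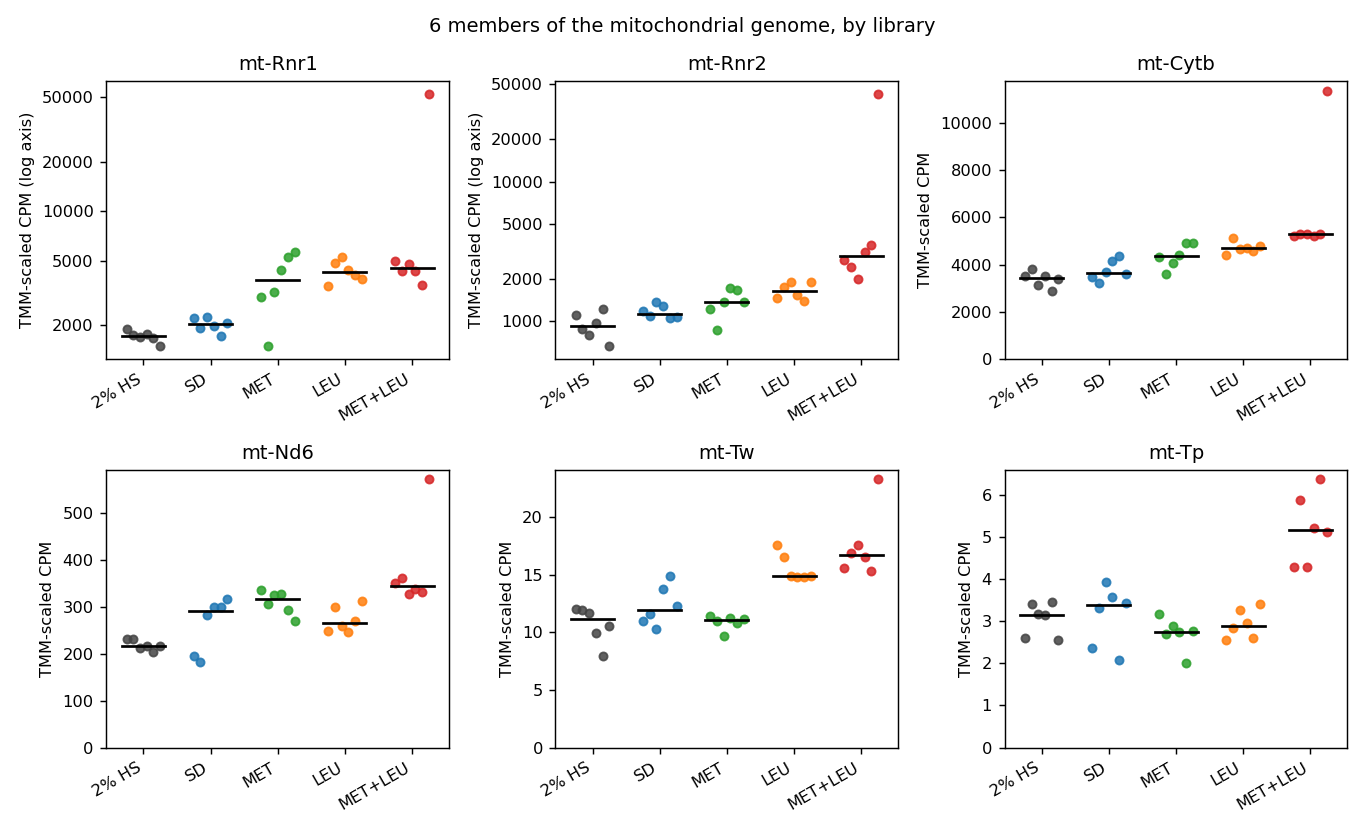
TMM-scaled CPM of 6 members in each library, by group, with bars at the median of 6 (log axes for the 2 rRNAs). MET+LEU replicate 6 is the top point of its group in 5 panels, and in the mt-Tp panel all 6 MET+LEU libraries, from 4.27 to 6.37, lie above every other library.

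Whether both agents without serum differed from serum itself was asked in MET+LEU vs. 2% HS. Here 15 of 24 members rose and 0 fell, beside 22.1% of all genes that rose and 20.3% that fell. All MET+LEU libraries were above all 2% HS libraries for 12 members, beside 11.5% of genes. Without replicate 6, 13 rose, beside 21%. The 15 were the 12 named for MET+LEU vs. SD with mt-Co2, mt-Tm and mt-Tq, and without replicate 6 mt-Co1 and mt-Co2 were no longer among them. By size, the 2 rRNAs led, with log2 fold changes of 2.85 ± 0.53 for mt-Rnr1 and 3.31 ± 0.58 for mt-Rnr2 (1.34 ± 0.20 and 1.55 ± 0.17 without replicate 6). mt-Co2 came next with 1.55 ± 0.53 (adjusted p = 0.0192), and 0.42 ± 0.33 (adjusted p = 0.338) without replicate 6. mt-Tl1, at 9.47 to 18.7 CPM (median 15.9) in 2% HS, followed with 1.31 ± 0.18 (adjusted p = 2.0e-06), and then mt-Nd2 with 1.20 ± 0.19 (adjusted p = 1.3e-05). Without replicate 6 these were 1.165 ± 0.17 and 0.85 ± 0.11. mt-Nd1 held 2127 to 2725 CPM in 2% HS and 3939 to 8882 in MET+LEU, with a log2 fold change of 0.98 ± 0.15 (adjusted p = 8.6e-06), and 0.72 ± 0.08 without replicate 6. mt-Nd6, whose 2% HS libraries all lay below 232 CPM, had a value of 0.80 ± 0.13 (adjusted p = 2.2e-05), and 0.64 ± 0.11 without replicate 6. mt-Cytb, mt-Tp and mt-Tw had log2 fold changes of 0.89, 0.76 and 0.71, and of 0.64, 0.77 and 0.61 without replicate 6. This comparison shares its MET+LEU libraries with the one against SD, so the values stand side by side and are not independent.

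Leucine added to metformin was examined in MET+LEU vs. MET, where 11 of 24 members rose and 0 fell, beside 5.54% of all genes that rose and 3.15% that fell. In 8 members all MET+LEU libraries were above all MET libraries, beside 2.48% of genes. The 11 that rose were the 12 of MET+LEU vs. SD other than mt-Nd6, which had 0.29 ± 0.13 (adjusted p = 0.173). Without replicate 6, 5 rose, beside 2.83% of genes: mt-Tp (0.93 ± 0.15), mt-Tw (0.58 ± 0.09), mt-Rnr2 (1.01 ± 0.17), mt-Nd4 (0.32 ± 0.08) and mt-Co1 (0.28 ± 0.07). With all libraries these 5 had values of 0.93, 0.68, 2.77, 0.58 and 0.42 in the same order. mt-Rnr1 lost its call, going from 1.70 ± 0.51 (adjusted p = 0.0369) to 0.18 ± 0.20 (adjusted p = 0.706), and it was also lost without MET replicate 1, 2, 3 or 4. mt-Tw held 9.66 to 11.4 CPM (median 11.1) in MET, below every MET+LEU library. mt-Co1 held 10246 to 12512 CPM (median 11014) in MET and 12936 to 22105 (14001) in MET+LEU, with 14913 the highest without replicate 6. The 2 groups did not overlap for mt-Co1, whereas MET+LEU and SD did.

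Metformin added to leucine, MET+LEU vs. LEU, gave 3 members that rose and 0 that fell, beside 4.61% and 1.67% of genes. In 7 members all MET+LEU libraries were above all LEU libraries, beside 2.73% of genes. The 7 were mt-Rnr2, mt-Tl1, mt-Nd1, mt-Nd2, mt-Nd6, mt-Cytb and mt-Tp. The 3 that rose were mt-Tp, mt-Rnr2 and mt-Nd6. mt-Tp held 2.54 to 3.41 CPM (median 2.89) in LEU and differed on the log2 scale by 0.82 ± 0.14 (adjusted p = 5.9e-04), and 0.82 ± 0.15 (adjusted p = 9.6e-04) without replicate 6. mt-Rnr2 had 2.50 ± 0.56 (adjusted p = 0.00904), and 0.73 ± 0.17 (adjusted p = 0.0154) without it, a call lost with the replicate number as a block and in the model of the 2 groups alone. mt-Nd6 had 0.48 ± 0.13 (adjusted p = 0.0317) with all libraries and 0.32 ± 0.11 (adjusted p = 0.121) without replicate 6, and the call was also lost without LEU replicate 1, 3, 4 or 5. The counts without replicate 6 were 2 members, beside 2.11% of genes. The small-subunit rRNA was not called, and a difference between the 2 rRNAs was not tested. mt-Rnr1 was at 3512 to 5230.2 CPM in LEU and 3543 to 4965 CPM in 5 of the 6 MET+LEU libraries, with a log2 fold change of 1.53 ± 0.51 (adjusted p = 0.0719), and 0.01 ± 0.20 (adjusted p = 0.989) without replicate 6. The number of mt-Rnr1 counts per mt-Rnr2 count was 2.00 to 2.90 (median 2.75) in LEU, 1.71 to 4.12 (2.47) in MET, 1.54 to 1.94 (1.70) in SD, 1.36 to 2.26 (1.90) in 2% HS and 1.00 to 2.35 (1.56) in MET+LEU.

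The interaction of MET and LEU asks whether the effect of both agents differs from the sum of their separate effects on the log2 scale. Of 24 members, 1 passed, beside 0.0377% of all genes with a positive interaction and 0.0126% with a negative one. This was mt-Tp, with an interaction of 1.02 ± 0.21 (adjusted p = 0.0336), and 1.01 ± 0.22 (adjusted p = 0.0378) without replicate 6, where 0.0566% of genes were positive. Its level was 2.08 to 3.92 CPM in SD, 2.01 to 3.17 (median 2.75) in MET, 2.54 to 3.41 in LEU and 4.27 to 6.37 in MET+LEU. The call was near the threshold and was lost in 18 of 35 alternative settings, with adjusted p from 0.0135 to 0.135. It was lost without SD replicate 2, 3 or 4, MET replicate 4, 5 or 6, LEU replicate 1, 3, 4 or 5, or MET+LEU replicate 2, 4 or 5, and under scaling without mt- and rRNA genes. Leaving out 2% HS replicate 4, which is not among those 35 settings, also lost it. DESeq2 gave it no adjusted p. For mt-Rnr2 the interaction was 2.27 ± 0.76 (adjusted p = 0.332) with all libraries and 0.50 ± 0.23 (adjusted p = 0.601) without replicate 6, and for mt-Rnr1 it was 0.61 ± 0.70 and -0.91 ± 0.28.

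Of the 7 nuclear copies of the stretch, 3 rose in MET+LEU vs. SD, beside 10.6% of all genes, and 4 did not pass (Gm29216, Gm28437, Gm28438 and Gm10222, with adjusted p of up to 0.478). For Gm28439, the copy of part of mt-Nd4, the fitted difference on the log2 scale was 1.07 ± 0.22 (adjusted p = 0.00103), and 0.77 (adjusted p = 2.6e-04) without replicate 6. For Gm10925, the copy of mt-Atp6, it was 0.81 ± 0.17 (adjusted p = 0.00168), and 0.58 (adjusted p = 0.00205) without it. Gm28661, the copy of mt-Co2, had 0.65 ± 0.21 (adjusted p = 0.0292), and 0.41 (adjusted p = 0.121) without it. For mt-Atp6 itself the log2 fold change was 0.57 with an adjusted p of 0.407, and for mt-Co2 it was 1.155 with an adjusted p of 0.116. Since their sequences are identical, these calls cannot be placed on the nuclear or the mitochondrial copy. Less similar copies on chromosomes 2 and 13 also rose in MET+LEU vs. SD. They were Gm13341, Gm13339 and Gm4076 (adjusted p = 0.0146, 0.037 and 0.049), while Gm13340 did not pass (adjusted p = 0.985). Each of these calls was lost without replicate 6 (adjusted p = 0.0834, 0.138 and 0.231).

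The nuclear partners of these transcripts were counted from lists of 83 subunits of the respiratory chain and ATP synthase (81 tested) and 87 factors of mitochondrial gene expression (86 tested). In MET+LEU vs. SD, 27 of the 81 subunits rose and 2 fell, beside the 10.6% and 7.8% of all genes given above. Without replicate 6, 27 rose and 0 fell, beside 7.86% of all genes that rose. By complex, 13 of 37 nuclear subunits of complex I rose, 0 of 4 of complex II, 2 of 9 of complex III, 5 of 14 of complex IV and 7 of 17 of ATP synthase. For complex II, 1 gene was at an unadjusted p under 0.05 in edgeR, beside 4961 of all 15907 genes, and DESeq2 and limma-voom called 0.

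The largest changes within complex I were those of Ndufa13 (0.95 ± 0.11, adjusted p = 2.9e-06), Ndufa5 (0.69 ± 0.11, adjusted p = 3.3e-05) and Ndufb9 (0.47 ± 0.08, adjusted p = 1.6e-04), all accessory subunits. In complex IV, Cox6c rose by 0.85 ± 0.11 on the log2 scale (adjusted p = 4.3e-06), and in complex III Uqcrb rose by 0.44 ± 0.07 (adjusted p = 2.3e-05). In ATP synthase, Atp5j2 rose by 0.66 ± 0.09 (adjusted p = 1.8e-05) and Atp5j by 0.51 ± 0.06 (adjusted p = 1.7e-07). Each of these 7 also passed without replicate 6, with values of 0.83, 0.53, 0.36, 0.69, 0.34, 0.64 and 0.47 in this order. In LEU vs. SD, 4 of 81 subunits rose and 0 fell (Ndufa13, Ndufb7, Atp5j2 and Atp5j), beside 0.233% and 0.321% of all genes. In MET vs. SD 0 passed in edgeR, beside 0.0754% of all genes that rose and 0.0817% that fell. There, 12 subunits were at an unadjusted p under 0.05, and DESeq2 and limma-voom called 4 each. At that unadjusted threshold 1597 of all 15907 genes passed in MET vs. SD. In SD vs. 2% HS, 6 of 81 rose and 1 fell, beside 13.9% of all genes in each direction.

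The factors that transcribe, process and translate mitochondrial RNA gave 10 of 86 that rose and 4 that fell in MET+LEU vs. SD, beside 10.6% and 7.8% of all genes, so the share that rose was near that of all genes. Without replicate 6, 9 rose and 1 fell, beside 7.86% of all genes that rose. With all libraries, limma-voom called 5 in all, where edgeR called 14. Among the factors of transcription and copying, Ssbp1, the single-stranded DNA-binding protein of mitochondrial DNA, rose by 0.35 ± 0.07 (adjusted p = 2.5e-04), Tfb2m, the initiation factor, by 0.26 ± 0.05 (adjusted p = 4.6e-04) and Lonp1, the matrix protease, by 0.15 ± 0.05 (adjusted p = 0.0140). Polrmt, the mitochondrial RNA polymerase, fell by 0.15 on the log2 scale (adjusted p = 0.0464), a call lost without replicate 6 (adjusted p = 0.0738). Among processing factors, Pnpt1, the polynucleotide phosphorylase, rose by 0.23 ± 0.06 (adjusted p = 0.00686) and Tbrg4 fell by 0.22 (adjusted p = 0.00473). Trnt1, which adds the CCA end to tRNAs, rose by 0.24 ± 0.06 (adjusted p = 0.00402). Neither agent alone gave a call among the 86 against SD in edgeR, and DESeq2 and limma-voom called 0. At an unadjusted p under 0.05 there were 6 for MET and 5 for LEU, where 1597 and 1588 of all 15907 genes passed. In SD vs. 2% HS, 3 rose and 9 fell, beside 13.9% of all genes in each direction, the latter including Lrpprc, which stabilizes mitochondrial mRNAs (a fall of 0.22, adjusted p = 1.2e-04).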

How the data were processed

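RNA-sequencing of 30 libraries was analysed from the table of raw read counts per gene that the authors deposited. Per the labels and the study's methods, total RNA was depleted of ribosomal RNA and made into stranded libraries, and the submitters' processing notes name GRCm38, STAR 2.7.6a, cutadapt 1.16, featureCounts 1.6.3 and DESeq2 1.30.1. The strand setting and the treatment of reads matching several places or genes are not given in the sources used here. The members and gene lists were chosen with earlier results of these data known.

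Identifiers were matched to GENCODE M21 (55141 of 55487). Copies of members were sought among its nuclear transcripts with blastn 2.17.0 (identity of at least 95%), and the genome outside annotated transcripts was not searched. In R 4.3.3, genes were kept by filterByExpr of edgeR 4.0.16 (minimum count 10, minimum total 15), and 15907 genes were scaled by TMM and fitted with group means (robust glmQLFit). The standard error is the log2 fold change divided by the square root of F. On simulated data for MET+LEU vs. SD over 15907 genes, 141 of 200 genes changed 1.5-fold were recovered, with 10 other calls. Alternatives used DESeq2 1.42.0 and limma 3.58.1, other scalings, filters, groups and thresholds, and each library left out.

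Values are named for mt-Rnr1, mt-Rnr2, mt-Nd6 and up to 8 called members per comparison by adjusted p, and up to 4 called genes per partner list by size. Other members were named after their values were seen.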

Additional observations from a re-analysis of the deposited data

Results flagged for a closer look

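In each group of 6 libraries, the highest and the lowest value of every tested member and every class share were checked for a gap to the nearest library that is large beside the group's range. This was done for 135 groups of values, of which chance picks about 1 in 20, and 27 stood out. MET+LEU replicate 6 accounted for 19 of them, as the highest of its group each time. Its shares were 5.17% for mRNA and 7.64% for rRNA. Its TMM-scaled CPM were 52730.1 for mt-Rnr1, 42476 for mt-Rnr2, 22105 for mt-Co1, 11360 for mt-Cytb, 10029 for mt-Nd5, 8882 for mt-Nd1, 5832 for mt-Nd4, 5501 for mt-Nd2 and 572 for mt-Nd6. In the copied stretch they were 79.6 for mt-Co2, 63.3 for mt-Atp6, 30.5 for mt-Co3, 22.03 for mt-Nd4l, 17.3 for mt-Atp8 and 2.51 for mt-Nd3, and among tRNAs 23.3 for mt-Tw and 12.3 for mt-Tm. mt-Tp and mt-Tl1 of this library were not flagged. mt-Tp lay within the range of the other MET+LEU libraries, whereas mt-Tl1, at 57.8 CPM, was the highest, with at most 41.6 in the others.

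The other 8 were spread over several libraries. In the copied stretch, mt-Nd4l was at 43.8 CPM in SD replicate 5, mt-Atp6 at 36.1 in SD replicate 2 and at 30.9 in 2% HS replicate 2, and mt-Atp8 at 9.83 in 2% HS replicate 2, each the highest of its group. Among tRNAs, mt-Ti was at 1.73 in SD replicate 2 and at 1.38 in MET+LEU replicate 4, mt-Tw at 9.66 in MET replicate 3 and mt-Tt at 0.155 in 2% HS replicate 2, each the lowest.

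The effect of LEU on mt-Tp differed with and without MET, by the interaction term, at 1.02 on the log2 scale. This call was near the threshold and was lost in 18 of 35 alternative settings.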

How the results depend on the processing

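The 8 comparisons are listed as SD vs. 2% HS, then each of MET, LEU and the pair vs. SD, then the pair vs. 2% HS, vs. MET and vs. LEU, then the interaction. Counts of members called were 2, 0, 0, 12, 15, 11, 3 and 1. Leaving out 1 library at a time gave 1 to 4, 0 to 1, 0 to 4, 11 to 13, 13 to 17, 5 to 11, 2 to 5 and 0 to 1. In SD vs. 2% HS, 1 member passed with no filter, with a threshold of 0.01, with the copies summed (chosen after seeing the data) and with the replicate block. In LEU vs. SD, 1 passed with no filter, DESeq2 and limma-voom each, and 4 with only the groups compared. With only the groups compared, 3 passed in MET+LEU vs. SD, 2 vs. MET, 1 vs. LEU and 0 in the interaction. That model with 5 MET+LEU libraries (chosen after seeing the data) gave 5 vs. MET, 9 vs. LEU and 0 in the interaction. MET+LEU vs. MET had 4 at a threshold of 0.01, and MET+LEU vs. LEU had 9 without the robust option. The interaction had 0 under upper-quartile scaling, scaling without mt- and rRNA genes, a threshold of 0.01 and DESeq2, where mt-Tp had no adjusted p. The cause of these changes was not tested. Apart from the model without MET+LEU replicate 6, shares of all genes called under these alternatives are not given here.

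Replicate numbers did not pair the samples (mean correlation of deviations 0.0157 over 60 pairs with the same number), and the replicate block gave 1, 0, 0, 12, 14, 10, 2 and 1 members called. Without the 7 mRNAs that have a nuclear copy, the median mRNA share was 1.56% for MET+LEU, 1.42% for LEU, 1.299% for MET, 1.10% for SD and 1.04% for 2% HS. This also leaves out the partly copied mt-Co1 and mt-Nd4. mt-Co1 had a median of 191425 counts per library, where its copy Gm29216 had 308.5. As a percent of counts on genes other than mt- and rRNA genes, the LEU share was 3.09%. Without MET+LEU replicate 6 (chosen after seeing the data for the partner lists), respiratory subunits called were 4 in place of 0 in MET vs. SD, 8 in place of 4 in LEU vs. SD and 7 in place of 13 in MET+LEU vs. LEU, and expression factors 1 in place of 4 in MET+LEU vs. LEU. The share of all genes that rose moved as well. It was 0.692% in place of 0.0754% in MET vs. SD and 1.02% in place of 0.233% in LEU vs. SD. In MET+LEU vs. LEU it was 2.11% in place of 4.61%. No call of a named member reversed direction. Among values that did not pass, the interaction of mt-Rnr1 (0.61) was -0.91, and mt-Atp6 in MET+LEU vs. SD (0.57) was -0.12, without MET+LEU replicate 6. The tRNAs tested rest on as few as 2 counts in a library, and differences in the 13 untested tRNAs were not detectable at this depth.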
